A study of Mus musculus with 6 samples.

Results

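Ubiquitin-conjugating (E2) enzymes take activated ubiquitin, or a ubiquitin-like modifier, from an E1 enzyme on a cysteine of their active site and pass it on to a substrate with the help of an E3 ligase. The choice of E2 decides in large part which kind of chain or single tag is built. In oocytes, ubiquitin-driven breakdown of cyclin B and securin by the anaphase-promoting complex (APC/C) keeps the germinal vesicle (GV) arrest in balance and later drives the exit from meiosis I. The E2 transcripts of mouse fully-grown oocytes (FGOs) were described here as the genes whose symbol begins with Ube2, 37 of the 24255 genes in the expression table. The symbol alone chose them, and 1 of them, Ube2cbp, is not an E2 but encodes a protein that binds one.

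The study compared GV-stage FGOs by RNA-Seq between wild type mice (WT) and mice without functional Lsm14b (Lsm14b-KO), with 3 libraries per genotype. The Lsm14b-KO mice were homozygous for the knockout-first, reporter-tagged allele Lsm14b tm1a(KOMP)Mbp, an insertion present in the whole body, and both genotypes were on a C57BL/6J background. All females had received 5 IU of the gonadotropin PMSG 46 h before collection, and ages were not given for these libraries. Each library pooled 20 oocytes, whose RNA was amplified by Smart-seq2, a procedure for very small amounts of RNA. Nothing says that the libraries of a genotype came from separate animals, so the p-values measure the spread between these libraries, which may be technical. In pooled oocytes, fewer oocytes that hold a transcript and less of it per oocyte cannot be told apart.

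The values are FPKM, fragments per kilobase of transcript scaled to the mapped fragments of the library, so levels of different genes can be compared per length. Lsm14b itself measured 2.77, 3.98 and 1.72 FPKM in the 3 WT libraries. The gene was listed at 0 in Lsm14b-KO replicates 1 and 2 and was at 0.102 FPKM in replicate 3, so the targeted gene followed the labels (log2 fold change -1.85, limma adjusted p = 0.0038). Summed over 12 oocyte markers, expression ranged from 50368 to 62391 FPKM in WT and from 32802 to 80458 FPKM in Lsm14b-KO libraries. Of 10 cumulus and granulosa cell markers, Amh, Foxl2 and Inhba were listed at 0 in all 6 libraries. The sum of the list was 9.91 to 13.6 FPKM in WT and 6.17 to 10.2 FPKM in Lsm14b-KO. Its highest single value was 11.5 FPKM, that of Cyp19a1. The 5 red blood cell markers were at 0 in all 6 libraries, and the 5 immune cell markers summed to at most 0.88 FPKM. The FPKM of all genes summed to 1141324 to 1244182 in WT but to 1029728, 564671 and 676656 in the 3 Lsm14b-KO libraries, and the estimated depth relative to WT replicate 1 was 1.33, 1.95 and 2.17 in these 3. Rescaling each library to the same sum (TPM) moved the median log2 fold change over the 6398 tested genes (the all-gene median) from -0.08 to 0.40. Changes are therefore also given relative to that median where scaling matters. Values of a genotype are listed in the order of replicates 1, 2 and 3.

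The stretch that makes a protein an E2 is short, and the codon of its catalytic cysteine lies 7 or 8 codons after a conserved histidine-proline-asparagine motif or a close variant of it. A search of GENCODE vM21 coding sequences (GRCm38/mm10) for that spacing found it in 26 of the 37 genes, with the cysteine codon TGT in 16 and TGC in 9 of the 25 that can be shown. The 30 coding bases that end at this codon, in capitals, are shown for the E2 genes that changed in Lsm14b-KO FGOs and carry the motif, and for the partners or paralogs they are compared with.
Ube2t: ccaaacattgattctagtggaaggattTGT
Ube2b: ccaaatgtgtatgctgatggtagcataTGT
Ube2a: cctaacgtctatgcagatggtagtataTGT
Ube2n: cctaatgtagacaagttgggaagaataTGT
Ube2w: cctcatgtgtatagcaatggtcatatcTGT
Ube2l3: cctaacatcgatgagaaggggcaggtcTGT
Ube2s: ccaaatgtgggccccaatggcgagatcTGT
Ube2c: cccaacgtggacacccagggcaacatcTGC
Ube2d3: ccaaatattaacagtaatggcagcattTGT
On the plus strand, the windows lie at chr1:134971299-134971328 (Ube2t), chr10:95541406-95541435 (Ube2n), chr2:164771950-164771979 (Ube2c) and chr3:135460002-135460031 (Ube2d3), each within 1 coding exon. On the minus strand, those of Ube2w (chr1:16585369-16585398), Ube2l3 (chr16:17160042-17160071) and Ube2s (chr7:4810479-4810508) also lie within 1 coding exon. The windows of Ube2a (chrX:36881740-36882621, plus strand) and Ube2b (chr11:51988678-51991400, minus strand) each cross a splice junction, so that an intron lies inside these spans. The paralogs Ube2a and Ube2b share 25 of the 30 bases, Ube2s and Ube2c share 21, and Ube2t and Ube2n share 17. No such spacing was found in Ube2v1 and Ube2v2, which are E2 variants without the catalytic cysteine, in Ube2cbp, or in Ube2j1, Ube2j2, Ube2o, Ube2q1, Ube2q2, Ube2ql1, Ube2u and Ube2z.

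The E2 transcripts covered a wide range of levels, and a handful changed in Lsm14b-KO FGOs. Ube2t, Ube2b, Ube2cbp, Ube2n, Ube2u and Ube2w fell, and Ube2l3, Ube2q2 and Ube2s rose. Of the 37 genes, 26 reached the minimum of 1 FPKM in any library and entered the test (limma on log2(FPKM + 1), Benjamini-Hochberg adjustment over 6398 genes, threshold 0.05). In all, 6 fell and 3 rose, together 34.6% of the 26, beside 21.6% of all tested genes. Ube2s, among the 3 that rose, entered the test only through the Lsm14b-KO libraries, where it was high, so its call does not stand apart from the filter. The 6 that fell are to be read against 15.2% of all tested genes lower in Lsm14b-KO, and the 3 that rose against 6.38% higher. The WT and Lsm14b-KO values did not overlap in 10 of the 26, beside 45% of all tested genes, with 3 above and 7 below, beside 19.1% and 26%. The 26 had a median log2 fold change of 0.10, beside -0.08 for all tested genes. After TPM scaling 4 of the 26 were higher and 4 lower, beside 13% and 7.6% of all tested genes, and the median was 0.54, beside 0.40.

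**Figure D1:**
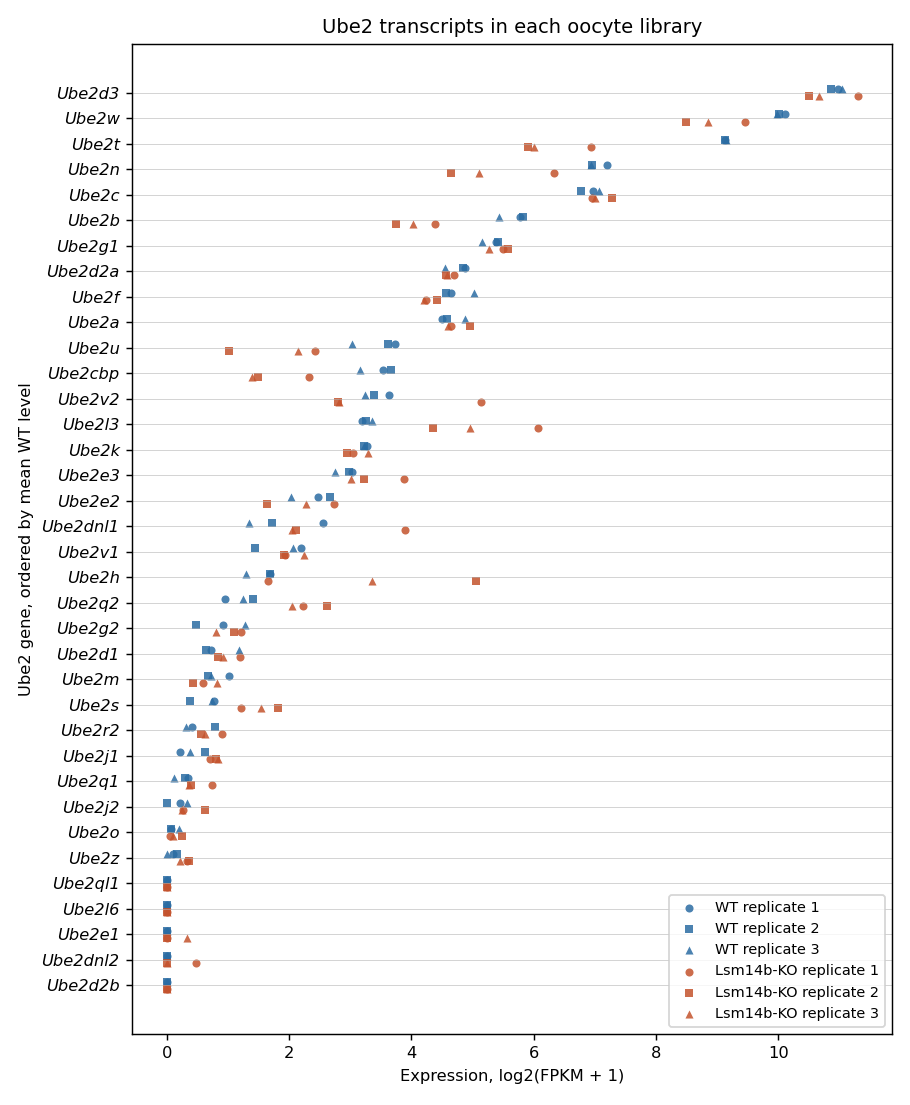
Expression of 36 Ube2 genes, in log2(FPKM + 1) on the x axis, ordered on the y axis by mean WT level, with WT libraries in blue and Lsm14b-KO libraries in orange and the marker shape giving the replicate number. Ube2d3, Ube2w and Ube2t stand above the others in WT, and the orange points of Ube2t, Ube2n, Ube2b, Ube2u, Ube2cbp and Ube2w lie left of the blue ones.

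**Figure D2:**
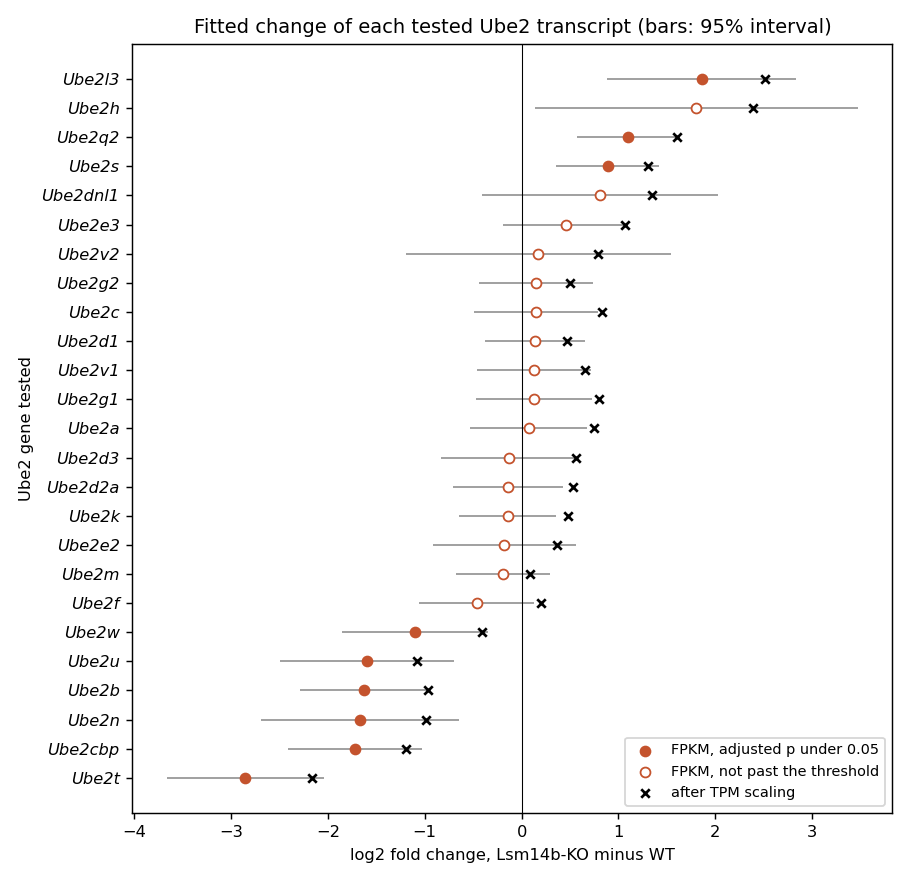
Log2 fold change (Lsm14b-KO minus WT) of 25 tested Ube2 genes on the x axis, from limma on log2(FPKM + 1), with 95% intervals as bars, filled circles for the 9 past the threshold and crosses for the estimate after TPM scaling. The crosses lie right of the circles for every gene, and 6 genes between Ube2d3 and Ube2f change sign with the scaling.

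Ube2t, the E2 that works with the ligase FANCL in the Fanconi anemia pathway of DNA crosslink repair, had the largest fitted log2 change on the FPKM scale, though after TPM scaling those of Ube2l3 and Ube2h were larger. It was at 561, 556 and 564 FPKM in WT and at 121, 58.7 and 63.3 FPKM in Lsm14b-KO. The WT values lay close together, and the highest Lsm14b-KO value was far below the lowest WT value. From 561 ± 3.97 (SD, n = 3) in WT to 81.0 ± 34.8 FPKM (SD, n = 3) in Lsm14b-KO, Ube2t fell by 2.85 on the log2 scale (SE 0.35, limma adjusted p = 0.00256). Relative to the all-gene median the log2 difference was -2.78, and -2.57 after TPM scaling. It was past the threshold in all 17 alternative fits, and no transcript with 95% identity over 200 nt was found elsewhere. The gene lies on chromosome 1 (134962565 to 134974162, plus strand, GRCm38). The transcript of its partner Fancl was lower in level, 6.43 FPKM in WT and 3.85 FPKM in Lsm14b-KO on average, and its groups overlapped.

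The UBC4/5 type holds the promiscuous E2s of the Ube2d and Ube2e families, which serve many E3 ligases. Ube2w, which attaches ubiquitin to the amino terminus of proteins, was counted with them here. Of the 10 symbols of this combined group 7 were tested, and Ube2w alone passed, which is 14.3% beside 21.6% of all tested genes. No gene of the Ube2d and Ube2e families passed. Ube2w was at 1110, 1035 and 1008 FPKM in WT and at 704, 359 and 463 FPKM in Lsm14b-KO. The groups were apart, and the mean went from 1051 ± 52.7 to 509 ± 177 FPKM (SD, n = 3 each). Ube2w fell by 1.10 on the log2 scale (SE 0.33, limma adjusted p = 0.0478), close to the threshold. The call was kept in 4 of 17 alternative fits and lost after TPM scaling (log2 fold change -0.41, adjusted p = 0.12), where the all-gene median stood at 0.40.

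Ube2d3 had the highest E2 value in both genotypes, with 3 near-identical copies in the annotation that make it uncertain where reads could be split. It was at 2009, 1853 and 2120 FPKM in WT and at 2528, 1457 and 1624 FPKM in Lsm14b-KO, so Lsm14b-KO replicate 1 was above and the other 2 below every WT library. The log2 fold change was -0.13 (95% interval -0.83 to 0.57, limma adjusted p = 0.754), and its sign turned under TPM scaling (0.56, adjusted p = 0.0529) and under quantile normalization, where it passed (0.72, adjusted p = 0.0287). Its paralog Ube2d2a, with 2 such copies, was at 28.4, 27.8 and 22.5 FPKM in WT and at 25.01, 22.8 and 23.1 FPKM in Lsm14b-KO. Ube2d1 was near 1 FPKM in both groups (0.823 in WT and 0.988 in Lsm14b-KO on average), and Ube2d2b was listed at 0 in all 6 libraries. The X-linked copies with a Ube2d-like sequence differed in level: Ube2dnl1 had 4.86, 2.31 and 1.53 FPKM in WT and 13.8, 3.31 and 3.13 FPKM in Lsm14b-KO, while Ube2dnl2 was above 0 in Lsm14b-KO replicate 1 alone, at 0.395 FPKM. Their windows around the cysteine codon are identical in all 30 bases, so these bases alone cannot tell the genes apart. No near-identical copy in the annotation was found for either gene, and how reads were split between them was not tested. In the Ube2e family, Ube2e2 averaged 4.33 FPKM in WT and 3.86 FPKM in Lsm14b-KO, and Ube2e3 averaged 6.60 and 9.74 FPKM. Ube2e1 was above 0 in Lsm14b-KO replicate 3 alone, at 0.25 FPKM. Ube2e2 and Ube2e3 overlapped between the genotypes and did not pass, but Ube2e3 was among the 4 higher after TPM scaling (log2 fold change 1.07, adjusted p = 0.0283, given after its values were seen).

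The RAD6 type consists of the paralogs Ube2a and Ube2b, which ubiquitinate histone H2B with RNF20 and RNF40 and the clamp PCNA with RAD18. Ube2b was at 54.0, 55.9 and 42.3 FPKM in WT and at 19.9, 12.4 and 15.3 FPKM in Lsm14b-KO. Every Lsm14b-KO library was below every WT library, and the mean went from 50.7 ± 7.36 to 15.9 ± 3.81 FPKM (SD, n = 3 each). Ube2b fell by 1.63 on the log2 scale (SE 0.29, limma adjusted p = 0.00885). The log2 difference from the all-gene median was -1.55, or -1.37 after TPM scaling. Gm26551 overlaps Ube2b on the same strand, and how reads of the overlap were assigned was not tested. Ube2a, on the X chromosome, was at 21.8, 22.9 and 28.5 FPKM in WT and at 24.0, 30.1 and 23.1 FPKM in Lsm14b-KO. The Ube2a groups overlapped, with a log2 fold change of 0.07 (95% interval -0.53 to 0.68, limma adjusted p = 0.843). The level of Ube2b was above that of Ube2a in every WT library and below it in every Lsm14b-KO library. The ligases of this branch, Rnf20, Rnf40 and Rad18, were at 0.715 to 1.75 FPKM on average in WT and did not pass.

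Ube2n builds lysine-63-linked chains with Ube2v1 or Ube2v2, variants that lack the catalytic cysteine and position the acceptor ubiquitin. Ube2n was at 147, 123 and 121 FPKM in WT and at 79.8, 24.1 and 33.5 FPKM in Lsm14b-KO. Lsm14b-KO replicate 1 lay between the other 2 Lsm14b-KO libraries and WT, and the groups did not overlap. From 130 ± 14.1 to 45.8 ± 29.8 FPKM (SD, n = 3 each), Ube2n fell by 1.67 on the log2 scale (SE 0.44, limma adjusted p = 0.0343). Transcripts of 5 genes nearly identical to part of Ube2n, among them Ube2n-ps1 and Ube2nl, lie elsewhere in the genome, so its value is uncertain where reads could be split. Ube2v2 was at 11.3, 9.44 and 8.46 FPKM in WT and at 34.3, 5.99 and 6.04 FPKM in Lsm14b-KO. Lsm14b-KO replicate 1 was above and the other 2 below every WT library, and the log2 fold change was 0.17 (95% interval -1.20 to 1.54, limma adjusted p = 0.842). Without that library the log2 fold change of Ube2v2 was -0.61 (limma adjusted p = 0.0437). Ube2v1 was at 3.601, 1.70 and 3.19 FPKM in WT and at 2.81, 2.77 and 3.71 FPKM in Lsm14b-KO, with a log2 fold change of 0.13 (95% interval -0.46 to 0.71, limma adjusted p = 0.723). Near-identical copies were found for both variants, 4 for Ube2v1 and 3 for Ube2v2.

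The APC/C uses Ube2c to start ubiquitin chains on its substrates and Ube2s to extend them through lysine 11. Ube2c was at 124, 109 and 134 FPKM in WT and at 124, 154 and 127 FPKM in Lsm14b-KO. The groups overlapped, and the log2 fold change was 0.14 (95% interval -0.49 to 0.78, limma adjusted p = 0.707). Ube2s was far lower in level, at 0.705, 0.305 and 0.674 FPKM in WT and at 1.31, 2.53 and 1.91 FPKM in Lsm14b-KO. All 3 Lsm14b-KO libraries were above all 3 WT libraries, and Ube2s rose by a log2 fold change of 0.89 (SE 0.23, limma adjusted p = 0.0323), or 0.91 relative to the all-gene median after TPM scaling. Ube2s passed the filter on low values only through the Lsm14b-KO libraries, where it was high, so its test is not independent of that filter. Without the filter, where 14325 genes were tested, 5 of the 9 E2 calls were lost, those of Ube2s, Ube2l3, Ube2n, Ube2u and Ube2w. In that fit 5.03% of all genes passed, beside 21.6% with the filter. The pseudocount of 1 makes the fitted change smaller than the ratio of the mean FPKM, which was 3.41. On the opposite strand Ube2s overlaps Rpl28, which was at 4.52, 0.94 and 1.03 FPKM in WT and at 0.798, 1.15 and 1.45 FPKM in Lsm14b-KO. The strand of the reads is not given in the sources used here, so reads of the overlap cannot be assigned to either gene with certainty.

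The E2s of endoplasmic reticulum degradation and lysine-48 chain building are Ube2g1, Ube2g2, Ube2j1, Ube2j2 and Ube2k. They held no gene past the threshold among the 3 tested, beside 21.6% of all tested genes. Ube2g1 was at 40.7, 41.6 and 34.8 FPKM in WT and at 44.0, 46.7 and 37.4 FPKM in Lsm14b-KO. Ube2k, which binds ubiquitin chains by a domain of its own and builds lysine-48 links, was at 8.69, 8.30 and 8.35 FPKM in WT and at 7.25, 6.71 and 8.83 FPKM in Lsm14b-KO. Both overlapped between the genotypes, as did Ube2g2 at 0.896 and 1.07 FPKM on average. The membrane-bound Ube2j1 was below 1 FPKM in all libraries, with 0.155 to 0.542 FPKM in WT and 0.64 to 0.783 FPKM in Lsm14b-KO. Ube2j2 averaged 0.139 FPKM in WT and 0.306 FPKM in Lsm14b-KO.

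A group of Ube2 enzymes conjugates modifiers other than ubiquitin. Ube2m and Ube2f conjugate NEDD8, mainly with Rbx1 and Rnf7 respectively. Ube2m was at 1.02, 0.59 and 0.652 FPKM in WT and at 0.505, 0.349 and 0.771 FPKM in Lsm14b-KO, and passed the filter on low values through WT alone. Its log2 fold change was -0.19 (95% interval -0.67 to 0.30, limma adjusted p = 0.515) and changed sign after TPM scaling (0.09). Ube2f was at 24.1, 22.8 and 31.6 FPKM in WT and at 17.8, 20.5 and 17.4 FPKM in Lsm14b-KO, a set of values that did not overlap but did not pass the test. Ube2l6, the E2 of the interferon-induced modifier ISG15, was listed at 0 in all 6 libraries.

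Of the remaining E2s, Ube2l3 and Ube2q2 rose and Ube2u fell. Ube2l3, which passes ubiquitin to HECT and RING-between-RING ligases, was at 8.18, 8.57 and 9.18 FPKM in WT and at 66.3, 19.4 and 30.2 FPKM in Lsm14b-KO. The 3 WT values were close together, and the lowest Lsm14b-KO value was above all of them. From 8.65 ± 0.504 to 38.6 ± 24.6 FPKM (SD, n = 3 each), the log2 fold change was 1.86 (SE 0.42, limma adjusted p = 0.0214), or 2.11 relative to the all-gene median after TPM scaling. Ube2l3 has 8 near-identical copies in the annotation, more than any other member, so its value is uncertain where reads could be split, and Ydjc, which overlaps it on the opposite strand, was listed at 0 in all 6 libraries. Ube2q2 was at 0.939, 1.65 and 1.37 FPKM in WT and at 3.67, 5.16 and 3.15 FPKM in Lsm14b-KO. The groups were apart, and Ube2q2 rose by a log2 fold change of 1.10 (SE 0.23, limma adjusted p = 0.0163). One near-identical copy of Ube2q2 was found.

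Ube2u, an E2 of little-known function, was at 12.3, 11.2 and 7.18 FPKM in WT and at 4.36, 1.03 and 3.40 FPKM in Lsm14b-KO. All 3 Lsm14b-KO libraries were below WT, and Ube2u fell by 1.597 on the log2 scale (SE 0.39, limma adjusted p = 0.0264), a call that was lost after TPM scaling (-1.08, adjusted p = 0.061). An antisense gene, Ube2uos, overlaps it. Ube2cbp, which encodes the protein that binds UBE2C and is itself no E2, was at 10.6, 11.7 and 7.94 FPKM in WT and at 3.98, 1.82 and 1.62 FPKM in Lsm14b-KO. It fell by 1.72 on the log2 scale (SE 0.30, limma adjusted p = 0.00875) without overlap between the groups. Gm16202 overlaps Ube2cbp on the same strand, and how reads of the overlap were assigned was not tested. Without Ube2cbp 8 of 25 tested E2s (32%) were past the threshold, beside 21.6% of all tested genes. Ube2h, which works with the CTLH ligase complex and has 2 near-identical copies, was at 2.21, 2.22 and 1.45 FPKM in WT and at 2.15, 32.3 and 9.26 FPKM in Lsm14b-KO. Lsm14b-KO replicate 1 lay within the WT range and the other 2 above it, and the gene did not pass (limma adjusted p = 0.106, printed after its values were seen).

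Low or absent E2 transcripts completed the family. Ube2r2, a relative of CDC34 that serves cullin-RING ligases, was at 0.241 to 0.725 FPKM in WT and at 0.467 to 0.871 FPKM in Lsm14b-KO. Ube2q1 was at 0.0866 to 0.268 FPKM in WT and at 0.287 to 0.671 FPKM in Lsm14b-KO. Ube2z, which receives ubiquitin from UBA6, was at 0 to 0.119 FPKM in WT and at 0.156 to 0.279 FPKM in Lsm14b-KO. Like Ube2j1, Ube2q1 and Ube2z had all 3 Lsm14b-KO values above all 3 WT values, and none of these was tested because all values were under 1 FPKM. The other untested members above 0 in any library, Ube2r2, Ube2o, Ube2j2, Ube2e1 and Ube2dnl2, overlapped between the genotypes. How often untested genes at such levels were apart was not determined, so no result is read from these genes. The Lsm14b-KO libraries were also the deeper ones, and the part of depth in these low values was not tested. Ube2o, a hybrid of E2 and E3, stayed at or below 0.183 FPKM in all 6 libraries, and Ube2ql1 was listed at 0 throughout.

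Summed over the family, E2 expression was 4204, 3927 and 4180 FPKM in WT and 3861, 2315 and 2536 FPKM in Lsm14b-KO. The WT mean of 4104 ± 153 FPKM (SD, n = 3) stood above the Lsm14b-KO mean of 2904 ± 836 FPKM (SD, n = 3), with an exact two-sided permutation p of 0.10, the smallest that 3 against 3 libraries allow. As a share of all FPKM of the library the order was reversed, 0.346% ± 0.0172 in WT and 0.387% ± 0.0203 in Lsm14b-KO (exact permutation p = 0.10, n = 3 each). A direction for the summed pool therefore depended on the scaling. Its composition did not need that scaling, since every member of a library shares the factor.

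Ube2d3, Ube2w and Ube2t together made up 87.5% to 88.3% of the summed FPKM in the WT libraries. Ube2d3, whose value is uncertain because of its copies, made up 47.8%, 47.2% and 50.7% of it in WT and 65.5%, 62.95% and 64.0% in Lsm14b-KO. Ube2w took 26.4%, 26.4% and 24.1% in WT and 18.2%, 15.5% and 18.3% in Lsm14b-KO. Ube2t took 13.3%, 14.2% and 13.5% in WT and 3.14%, 2.54% and 2.49% in Lsm14b-KO. All 3 shares were apart between the genotypes, each at the exact permutation p of 0.10. The shares of a library add up to its whole, so they are not separate results. Lower shares of Ube2w and Ube2t raise those of the rest. The FPKM of Ube2d3 itself overlapped between the genotypes (log2 fold change -0.13, limma adjusted p = 0.754). All other members together took 12.1% ± 0.422 in WT and 15.8% ± 2.97 in Lsm14b-KO (SD, n = 3 each, exact permutation p = 0.10).

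**Figure D3:**
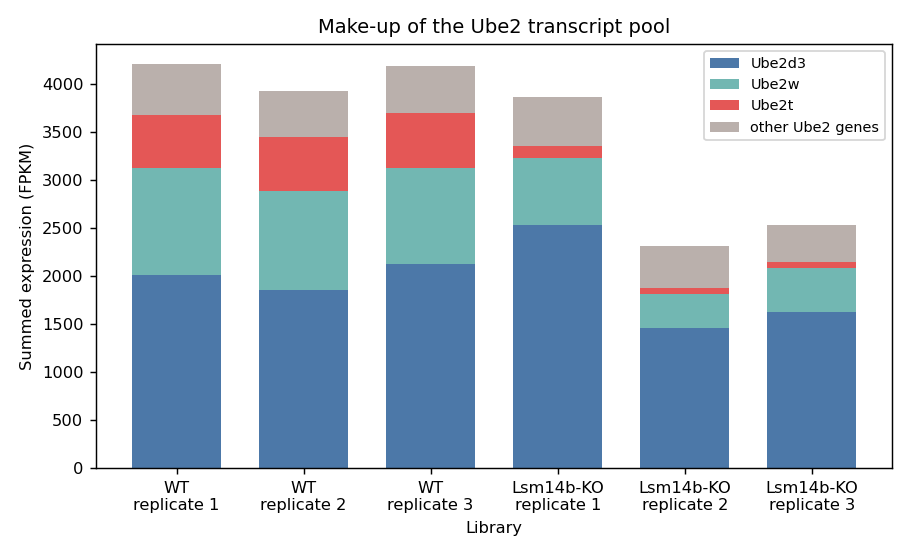
Summed FPKM of the 37 Ube2 genes in each library (y axis) with the parts of Ube2d3, Ube2w, Ube2t and all others stacked. The red part (Ube2t) makes up 13.3% to 14.2% of the WT bars and 2.49% to 3.14% of the Lsm14b-KO bars.

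Ratios of 2 E2 transcripts within a library are likewise free of the library's scaling. Of 12 pairs of paralogs or partners, 9 had both genes above 0 in every library, and 3 of these did not overlap between the genotypes. Ube2b over Ube2a was 2.48, 2.44 and 1.48 in WT and 0.831, 0.411 and 0.662 in Lsm14b-KO, a log2 difference of -1.77. Ube2n over Ube2v2 was 12.9, 13.1 and 14.3 in WT and 2.33, 4.02 and 5.54 in Lsm14b-KO, a log2 difference of -1.85. Ube2s over Ube2c was 0.0057, 0.00281 and 0.00504 in WT and 0.0106, 0.0164 and 0.015 in Lsm14b-KO, a log2 difference of 1.67. Ube2s was under 1 FPKM in every WT library and passed the filter on low values through Lsm14b-KO alone. Its ratio therefore rests on low values and adds no independent support to its call. Each had the smallest exact permutation p of 0.10, which is 0.30 after Benjamini-Hochberg adjustment over the 9 pairs, so none passed. The other 6 pairs overlapped, among them Ube2d2a over Ube2d3, with 0.0141, 0.015 and 0.0106 in WT and 0.00989, 0.0156 and 0.0142 in Lsm14b-KO.

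**Figure D4:**
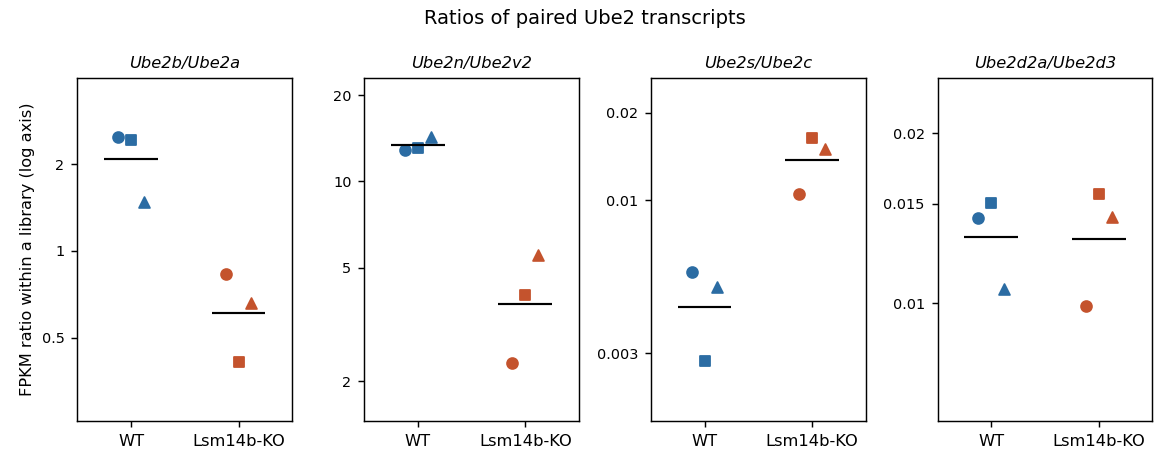
FPKM ratio of paired Ube2 transcripts within each library (log y axis) for 4 pairs, with WT in blue, Lsm14b-KO in orange, the marker shape giving the replicate and the line the geometric mean. The genotypes are apart for the first 3 pairs and overlap for Ube2d2a over Ube2d3. In the third pair, Ube2s was under 1 FPKM in every WT library.

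The other steps of the pathway showed calls in both directions. Of 9 E1 enzymes, 5 were tested, and 1 fell and 1 rose, which is 40% beside 21.6% of all tested genes. Uba3, the catalytic subunit of the NEDD8 E1, was at 8.89, 7.78 and 7.02 FPKM in WT and at 2.89, 1.63 and 1.66 FPKM in Lsm14b-KO, and fell by 1.56 on the log2 scale (limma adjusted p = 0.0052). Uba2, the catalytic subunit of the SUMO E1, was at 1.89, 2.43 and 3.23 FPKM in WT and at 5.01, 5.47 and 5.92 FPKM in Lsm14b-KO, and rose by a log2 fold change of 0.89 (limma adjusted p = 0.0265). Uba6, the second E1 for ubiquitin, was at 0.726 to 1.06 FPKM in WT and at 1.41 to 2.37 FPKM in Lsm14b-KO without passing (log2 fold change 0.67, limma adjusted p = 0.0546), and passed after TPM scaling (1.08, adjusted p = 0.0294).

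Of 12 precursor genes of ubiquitin and its relatives, 10 were tested, 2 fell and 0 rose in the limma test, which is 20% beside 21.6% of all tested genes. Ufm1, a modifier of the endoplasmic reticulum, fell from 19.8 to 4.76 FPKM on average (log2 fold change -1.91, limma adjusted p = 0.0055). Sumo2 fell from 448 to 195 FPKM (log2 fold change -1.24, limma adjusted p = 0.035), a call lost after TPM scaling (adjusted p = 0.073). Sumo3 was at 7.60, 4.96 and 8.65 FPKM in WT and at 11.9, 92.7 and 31.9 FPKM in Lsm14b-KO, with a log2 fold change of 2.11 that did not pass (limma adjusted p = 0.0512) and passed after TPM scaling (adjusted p = 0.0452). Of 8 genes with an E2 fold and another name, 5 were tested and 1 fell, which is 20% beside 21.6% of all tested genes. This was Atg10, the E2 that conjugates ATG12 in autophagy, which fell by 2.41 on the log2 scale (limma adjusted p = 0.0048). Aktip and Ufc1, the E2 for UFM1, overlapped between the genotypes (log2 fold changes -0.36 and -0.25, limma adjusted p = 0.26 and 0.56).

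Of 40 E3 ligases and partners, 24 were tested, 1 rose and 2 fell, which is 12.5% beside 21.6% of all tested genes. Siah2, a RING ligase, was at 83.4, 80.1 and 66.3 FPKM in WT and at 26.03, 13.01 and 17.7 FPKM in Lsm14b-KO, and fell by 2.01 on the log2 scale (limma adjusted p = 0.0061). Wwp1, a HECT ligase, fell from 9.25 to 1.96 FPKM on average (log2 fold change -1.96, limma adjusted p = 0.0207). Ube3a, the HECT ligase of Angelman syndrome, was at 0.974, 1.14 and 1.42 FPKM in WT and at 2.81, 4.22 and 3.22 FPKM in Lsm14b-KO, and rose by a log2 fold change of 1.01 (limma adjusted p = 0.0149).

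Lsm14b-KO replicate 1 stood nearer to WT than the other 2 Lsm14b-KO libraries in all 6 genes that fell and in Ube2s, and farther from WT in Ube2l3. Without it 12 of the 26 E2 genes were past the threshold, beside 47.0% of all genes tested in that fit. Ube2h was then among the genes that rose, and Ube2v2 among those that fell. Ube2t was past the threshold whichever single library was left out, and Ube2cbp in 5 of 6 such fits, but the calls of the other 7 were each lost in 3 to 5 of them. Leaving out Lsm14b-KO replicate 3 kept Ube2t alone, beside 5.06% of all genes tested in that fit. Of all genes tested, 14.8% passed without Lsm14b-KO replicate 2 and 6.50% to 8.55% without a WT library, beside 21.6% with all 6 libraries. The 6 genes that fell had a median transcript length of 1664 nt, the 3 that rose 2609 nt and the 17 not past the threshold 2031 nt. Length moved with the fold change across all genes (Pearson's r = 0.33 and Spearman's rho = 0.36 over 6321 genes of these 6 libraries). Over the 26 E2 genes the same values were 0.21 and 0.17. After a correction for length and GC content, 4 E2 genes were higher and 5 lower, beside 10.2% and 12.4% of all genes tested. Ube2w was no longer past the threshold (adjusted p = 0.051) and Ube2dnl1 was added to those higher. The part of transcript length in the uncorrected values of single genes was not tested.

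**Figure D5:**
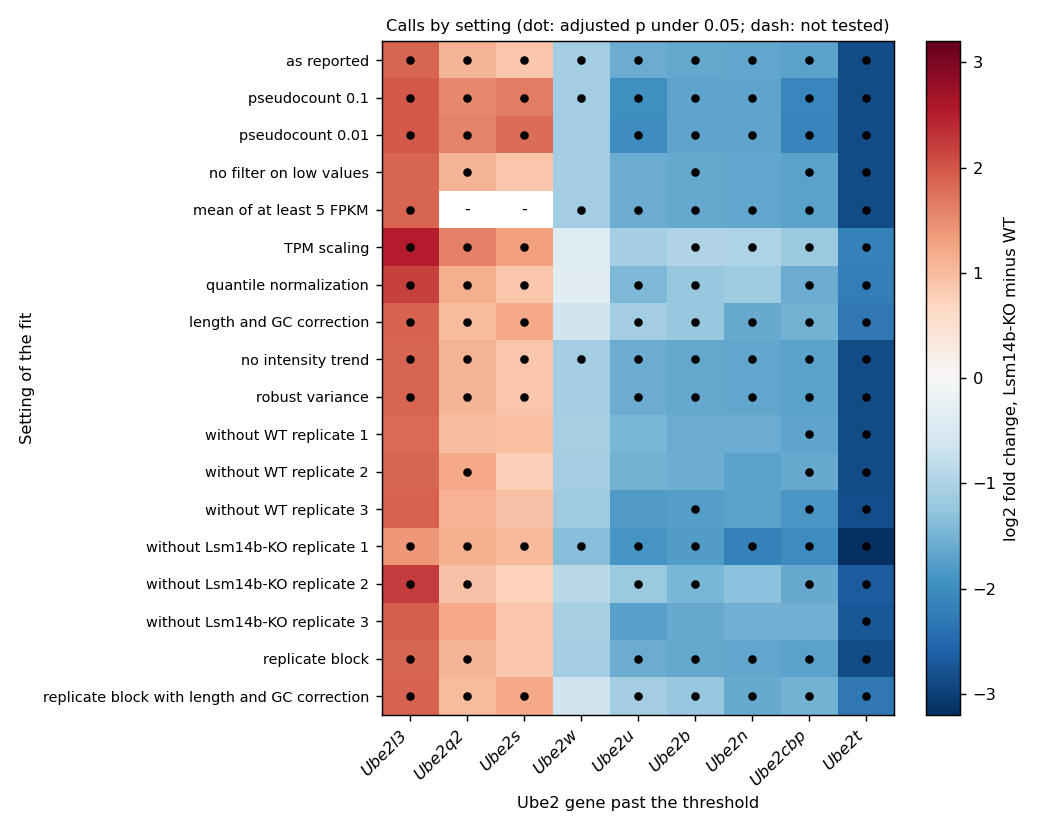
Log2 fold change (color) of the 9 Ube2 genes past the threshold (x axis) in each alternative fit (y axis), with a dot where the adjusted p was under 0.05 and a dash where the gene was not tested. The Ube2t column is dotted in every fit, and Ube2w keeps its dot in 4 of 17 alternatives.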

How the data were processed

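FPKM of 6 libraries (3 WT, 3 Lsm14b-KO, grouped by title and genotype labels) were analysed. The authors aligned reads to mm10 with TopHat2 2.0.13 and list Cufflinks 2.2.1 and Cuffnorm among their tools. The annotation and strand are not given in the sources used here. The labels and the methods name different library kits. Columns with the authors' Cuffdiff group means, fold changes and p-values were not used. The deposited FPKM hold no counts, so absolute depth is unknown, and depth relative to WT replicate 1 was estimated from genes under 0.1 FPKM.

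The 6398 genes that reached 1 FPKM in any library were tested as log2(FPKM + 1) with limma 3.58.1 in R 4.3.3 (lmFit, eBayes with an intensity trend), genotype only, two-sided, with Benjamini-Hochberg adjustment over all of them at 0.05. This pseudocount understates changes of low genes. The fit was checked on simulated data. Sums and ratios were compared by exact permutation tests (scipy 1.17.1). Coordinates, sequences, lengths and GC content came from GENCODE vM21 (GRCm38), and copies from blastn 2.17.0 (95% identity over 200 nt). Alternatives were other pseudocounts, filters, scalings and variance models, leaving out each library, and a replicate block.

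The members and gene lists were chosen with earlier results of these data known. Every Ube2 gene was named with its level, except 1 that is counted but not reported here. Folds were given for members past the threshold and for Ube2c, Ube2s, Ube2a, Ube2b, Ube2n, Ube2v1, Ube2v2, Ube2d3, Ube2l3 and Ube2m, and of other pathway genes for the 3 of each list with the lowest adjusted p.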

Additional observations from a re-analysis of the deposited data

How the results depend on the processing

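With no filter on low values, the 3 higher and 6 lower E2 genes became 1 and 3 of 34 members tested. In that fit 720 of 14325 genes passed (5.03%). With a minimum mean of 5 FPKM the E2 calls were 1 higher and 6 lower of 18 members tested. These are to be read against 862 of 2560 genes (33.7%) in that fit. Leaving out each library in turn gave 0 to 5 higher and 1 to 7 lower members. Of all genes tested, 47.0% (2952) passed without Lsm14b-KO replicate 1, and 14.8% (915) and 5.06% (321) without replicates 2 and 3. Without WT replicates 1, 2 and 3 the shares were 6.50% (408), 6.78% (426) and 8.55% (537). The members' median log2 change was -0.14 with the mean filter, 0.54 with TPM scaling, 0.24 with quantile normalization, 0.19 with length and GC correction, and -0.049 to 0.083 with single libraries left out, below 0 without WT replicate 2 or Lsm14b-KO replicate 1. The summed E2 pool turned from -0.50 to 0.16 (log2) under TPM scaling. Fold changes of genes not past the threshold changed sign for Ube2d3 (0.56 by TPM, 0.72 by quantile normalization) and Ube2m (0.087 by TPM). With single libraries left out they ranged from -0.37 to 0.025 for Ube2d3 and from -0.039 to 0.19 for Ube2a, both changing sign without Lsm14b-KO replicate 2. The range was -0.11 to 0.28 for Ube2v1, below 0 without WT replicate 2, and -0.61 to 0.56 for Ube2v2, below 0 without Lsm14b-KO replicate 1. The cause of these shifts was not tested. The 9 genes past the threshold kept their direction in all fits that tested them. Among them, adjusted p ranged over the alternatives from 2.02e-05 to 0.0245 for Ube2t and from 0.00111 to 0.221 for Ube2w.

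Deviations of same-numbered WT and Lsm14b-KO libraries correlated at 0.19, -0.13 and 0.02, and those of WT replicate 3 and Lsm14b-KO replicate 2 at 0.31. These values show no pairing by number, but with 3 libraries per genotype they cannot exclude one. With the replicate block 2 members were higher and 5 lower, beside 19.4% of all genes called, and with the block and the length and GC correction 5 were higher and 5 lower, beside 21.5%, with a median of 0.19. Absolute depth is unknown, so differences of members under 1 FPKM could not be judged against counting error.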
